A study of Mus musculus with 2 samples.

Results

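Kappa variable segments (Igkv) were compared between aortic macrophage libraries of mice with PDR syndrome and of mice with SKYD syndrome. The members were the rows of the gene table annotated as immunoglobulin variable genes whose names start with Igkv, 100 of 54532 rows. The table holds 160 rows named Igkv in all, and the remaining 60 are annotated as variable pseudogenes. The mice were male ApoE-/- animals on the C57BL/6J background, labelled as 6 weeks old. PDR (Phlegm-Dampness Retention) mice received a high-fat diet for 4 weeks. SKYD (Spleen and Kidney Yang Deficiency) mice received propylthiouracil, a drug that blocks thyroid hormone synthesis, at 10 mg/kg per day for 4 weeks and then a high-fat diet for 2 weeks. Syndrome, drug, diet time and age at collection cannot be told apart. Cells sorted on F4/80 and CD11b were pooled from 5 mice in each group, so each group had 1 library and no difference given here has a replicate check. Apoe, the gene disrupted in both groups, had 17336 reads in PDR and 3618 in SKYD, and a total per gene does not show whether the disrupted stretch was read, so it does not check the genotype.

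An antibody light chain of the kappa type is made from a variable segment joined to a joining segment (Igkj) and spliced to the constant gene Igkc. Each B cell joins its segments during development in the bone marrow and usually carries a single kappa rearrangement that is expressed, and all of its daughter cells keep it. Plasma cells, the antibody-secreting descendants of B cells, hold large amounts of this RNA, so the levels of variable segments in bulk RNA follow both the number of cells and how much RNA each of them makes. Fewer cells of a type and less RNA per cell cannot be told apart in these libraries.

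The germline ends of 12 segments are printed because this end enters the third hypervariable loop (CDR3) of the light chain. They are examples from among the most abundant segments and those with large differences, picked after their values were seen. Each run is the last 60 bases of the variable exon on chromosome 6 of GRCm38, taken from GENCODE M21, and the capitals start at the last cysteine codon read in frame and run to the end of the germline exon.

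Igkv10-96 (chr6:68631963-68632022, minus strand): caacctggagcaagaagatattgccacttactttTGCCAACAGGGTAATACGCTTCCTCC
Igkv8-27 (chr6:70171809-70171868, minus strand): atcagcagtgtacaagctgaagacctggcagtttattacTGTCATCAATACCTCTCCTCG
Igkv6-23 (chr6:70260409-70260468, minus strand): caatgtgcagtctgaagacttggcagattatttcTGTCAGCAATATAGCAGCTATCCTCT
Igkv6-15 (chr6:70406469-70406528, minus strand): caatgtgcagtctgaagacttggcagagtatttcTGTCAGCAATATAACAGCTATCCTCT
Igkv10-94 (chr6:68704508-68704567, minus strand): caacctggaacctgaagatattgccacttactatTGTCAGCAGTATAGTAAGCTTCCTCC
Igkv10-95 (chr6:68680789-68680848, plus strand): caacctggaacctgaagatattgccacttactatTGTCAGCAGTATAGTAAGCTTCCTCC
Igkv3-4 (chr6:70672318-70672377, plus strand): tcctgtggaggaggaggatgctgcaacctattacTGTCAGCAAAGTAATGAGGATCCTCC
Igkv16-104 (chr6:68426013-68426072, plus strand): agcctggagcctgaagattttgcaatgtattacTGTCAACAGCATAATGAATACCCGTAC
Igkv12-41 (chr6:69858420-69858479, minus strand): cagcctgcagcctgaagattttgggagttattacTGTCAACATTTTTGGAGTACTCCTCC
Igkv14-126 (chr6:67896583-67896642, plus strand): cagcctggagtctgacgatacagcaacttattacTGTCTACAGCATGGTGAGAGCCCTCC
Igkv4-74 (chr6:69184826-69184885, minus strand): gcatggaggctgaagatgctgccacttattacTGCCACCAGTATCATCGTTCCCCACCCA
Igkv4-80 (chr6:69016558-69016617, minus strand): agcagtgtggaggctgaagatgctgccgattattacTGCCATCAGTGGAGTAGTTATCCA

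The stretch in capitals was 26 bases long in 8 of these 12 segments, 21 bases in Igkv8-27, 24 in Igkv4-80, 27 in Igkv16-104 and 28 in Igkv4-74. Over all 100 segments there were 88 distinct stretches, and 22 segments shared theirs with another segment. Igkv10-94 and Igkv10-95 are such a pair, and their values below differ in direction.

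Igkv reads were more abundant in PDR. They numbered 266750 of 23086889 reads on genes in the PDR library, 1.16% (95% exact binomial CI 1.15 to 1.16), and 114096 of 25427863 in the SKYD library, 0.449% (0.446 to 0.451). Reads are those recovered from the deposited FPKM (fragments per kilobase of exon, scaled to library size), and intervals cover counting error only. Summed Igkv FPKM was 31265 in PDR and 12459 in SKYD, a ratio of 2.51. The constant gene Igkc moved in the same direction, with an FPKM of 55958 in PDR and 25888 in SKYD, 2.16-fold (95% CI 2.15 to 2.17, exact Clopper-Pearson limits on the split of reads). Summed Igkv FPKM was thus 0.559 times that of Igkc in PDR and 0.481 times in SKYD.

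Differences of single segments are given as log2(FPKM + 1), PDR minus SKYD, for the 81 segments whose FPKM averaged 1 or more over both libraries. The other 19 had at most 18 reads in either library. More than 2-fold higher in PDR were 41 of the 81 segments, 50.6%, against 7.38% of the 10399 genes tested in the same way. More than 2-fold higher in SKYD were 14 segments, 17.3%, against 6.91% of all genes tested, and 26 segments lay within 2-fold. Past 4-fold there were 25 segments higher in PDR, 30.9%, against 1.87% of all genes tested, and 7 higher in SKYD, 8.64%, against 2.08%. The median difference was 1.06 over the 81 segments and -0.0035 over all genes tested, with quartiles of 0.0014 and 2.21 for the segments and of -0.36 and 0.35 for all genes. The segments therefore spread more widely than the genes of the whole table, in both directions. Their median lay below the log2 ratio of the summed FPKM, 1.33, which is taken without the added 1. With 0.01 added in place of 1, the median was 1.31, close to that ratio. Set against the ratio instead, 19 segments were past 2-fold toward PDR, 26 toward SKYD and the median was -0.27, a reading chosen after the data were seen. The added 1 draws the differences toward 0 but not the ratio, so this reading leans toward SKYD. By share of Igkv FPKM, 40 of the 81 segments were higher in PDR and 41 in SKYD.

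**Figure D1:**
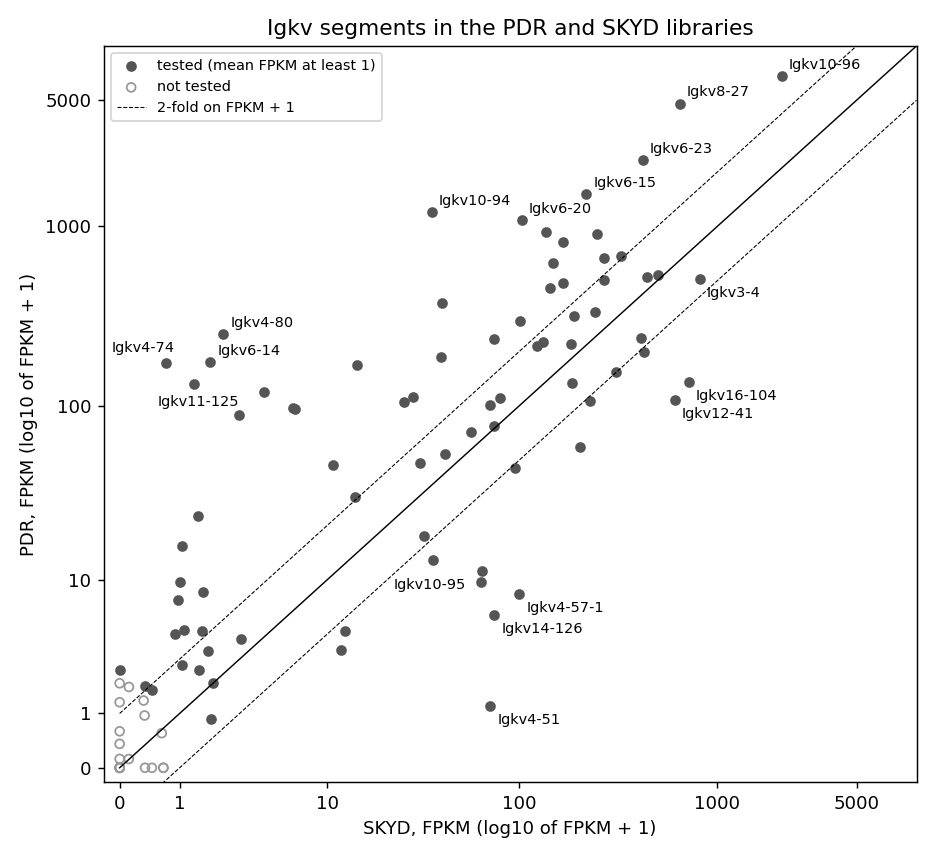
Each point is 1 of the 100 Igkv segments, with its FPKM in SKYD on the x axis and in PDR on the y axis, both as log10 of FPKM + 1, and the dashed lines mark 2-fold. Igkv10-96 lies at the top right in both libraries, and 41 of the 81 tested segments lie above the upper dashed line against 14 below the lower one.

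The same segment led both libraries. Igkv10-96 (ENSMUSG00000094420) had an FPKM of 6832 in PDR, from 57610 reads, and of 2106 in SKYD, from 18894 reads. It took 21.9% of summed Igkv FPKM in PDR and 16.9% in SKYD. Its FPKM was 3.24-fold higher in PDR (95% CI 3.19 to 3.30). Below it the order of the libraries parted, and 3 segments were among the 10 highest of both, Igkv10-96, Igkv8-27 and Igkv6-23.

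In PDR the second segment was Igkv8-27 (ENSMUSG00000076580), with an FPKM of 4792 against 647 in SKYD, where it had rank 4. Its share of Igkv FPKM was 15.3% in PDR and 5.19% in SKYD. The next segments in PDR came from subgroup 6 and from subgroup 10. Igkv6-23 had an FPKM of 2339 in PDR and 421 in SKYD, 5.55-fold (5.36 to 5.75). Igkv6-15 had 1511 and 219, 6.89-fold (6.56 to 7.23). For Igkv10-94 the values were 1200 and 35.9, 33.5-fold (29.9 to 37.6), and it ranked 5 in PDR and 47 in SKYD. The other segments among the 10 highest in PDR were Igkv6-20, Igkv9-120, Igkv4-59, Igkv6-25 and Igkv19-93, with FPKM between 683 and 1084 in PDR and between 103 and 327 in SKYD. All 10 were higher in PDR than in SKYD, the smallest difference being that of Igkv19-93 (2.09-fold). They were picked as the highest in PDR, and that choice itself favours this direction.

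In SKYD, segments of lower rank in PDR stood high. Those named here were picked as among the highest in SKYD, and that choice itself favours higher values in SKYD. Igkv3-4 (ENSMUSG00000096715) ranked 2 with an FPKM of 814, against 508 and rank 15 in PDR. Igkv16-104 (ENSMUSG00000076522), the one member of subgroup 16, had an FPKM of 719 in SKYD and 137 in PDR, 5.26-fold higher in SKYD (4.95 to 5.60), and rank 3 against 35. Igkv12-41 (ENSMUSG00000095007) had 611 in SKYD and 108 in PDR, 5.64-fold (5.25 to 6.06), and rank 5 against 41. These 3 segments were higher in SKYD although the Igkv total was lower there. Igkv8-30 and Igkv1-117 were also higher in SKYD, 2.14-fold (2.02 to 2.27) and 1.73-fold (1.64 to 1.82). Igkv14-111 and Igkv15-103 had nearly level FPKM, 503 in SKYD and 536 in PDR for the first and 442 and 525 for the second, so that their shares of Igkv FPKM were 2.35 and 2.11 times as large in SKYD.

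The 5 largest differences each way were mostly those of segments outside the 10 highest of either library, with the exceptions of Igkv10-94 and Igkv12-41. Igkv4-74 had 1606 reads in PDR and 7 in SKYD, a log2 difference of 6.67 and a ratio of FPKM of 244 (95% CI 118 to 608). Igkv4-80, which shares stretches of sequence with it, had 2053 and 20 reads, a log2 difference of 6.26. Igkv6-14 (5.96), Igkv11-125 (5.82) and Igkv10-94 (5.03) followed. Toward SKYD, Igkv4-51 had 11 reads in PDR and 703 in SKYD, a log2 difference of -5.05 and 60.1-fold higher FPKM in SKYD (33.4 to 121). Igkv4-57-1 (-3.46), Igkv14-126 (-3.42), Igkv10-95 (-2.60) and Igkv12-41 (-2.48) came next. Subgroup 4 thus held the largest difference in each direction.

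Dominance of single segments was stronger in PDR. The 5 highest segments took 53.3% of Igkv FPKM in PDR and 39.3% in SKYD, and the 10 highest took 67.5% and 57.0%. A share of 50% of the FPKM was reached with 5 segments in PDR and with 8 in SKYD. The inverse Simpson index, the number of equally abundant segments that would give the same concentration, was 11.3 in PDR and 18.6 in SKYD. The exponential of the Shannon entropy, which gives more weight to minor segments, was 22.9 and 31.3. Without Igkv10-96, the leading segment of both, the inverse Simpson index was 15.1 in PDR and 27.4 in SKYD. Without the 5 highest of each library, 2 of which are shared, it was 28.4 and 29.5, and taking out the highest segments of a library lowers concentration by construction. No spread between mice can be set beside these indices, and a pool of 5 mice cannot show whether 1 mouse carried a dominant segment.

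**Figure D2:**
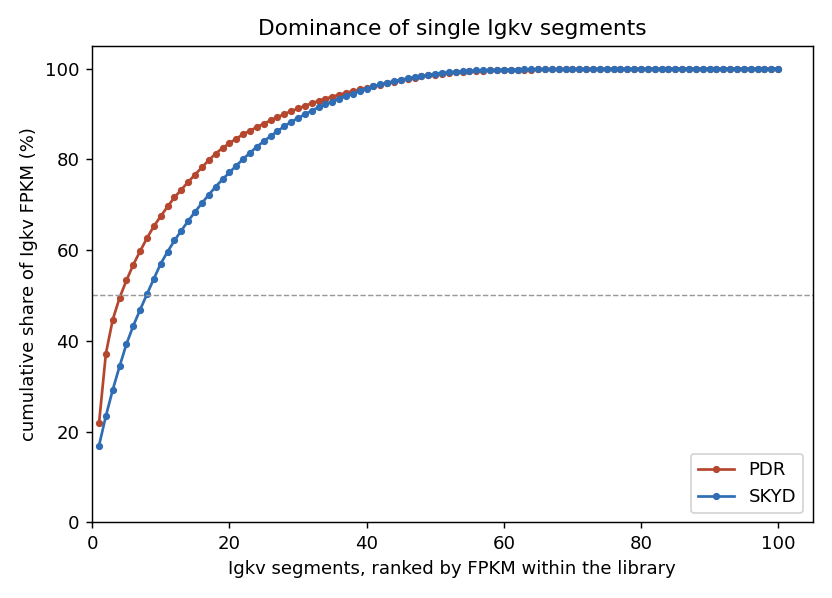
The x axis ranks the 100 Igkv segments by FPKM within each library and the y axis gives the cumulative share of Igkv FPKM in percent, with a dashed line at 50%. The PDR curve rises faster and passes the line at 5 segments, the SKYD curve at 8, and the curves meet after about the first 40 segments.

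Detection was nearly complete in both libraries. At least 1 read was found for 91 segments in PDR and for 89 in SKYD, and 85 were found in both. Drawn down to the 114096 Igkv reads of SKYD, PDR is expected to show 89.5 segments, so the numbers detected did not differ beyond depth. The 6 segments found in PDR alone had at most 21 reads, and the 4 found in SKYD alone had at most 6. Igkv1-131, Igkv1-35, Igkv2-137, Igkv20-101-2 and Igkv8-26 had 0 reads in both. More than 1000 reads were found for 38 segments in PDR and for 29 in SKYD.

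Subgroups gather segments of related sequence, and the number after Igkv names them. Of 20 subgroups, 14 had a higher summed FPKM in PDR and 5 in SKYD, while subgroup 20 had no reads. As shares of Igkv FPKM, the order was the reverse, with 5 subgroups taking a larger share in PDR and 14 in SKYD. The 5 were subgroups 6, 8, 9, 10 and 11. Subgroup 10 was first in both libraries, with 25.7% in PDR and 17.7% in SKYD. Subgroup 6 took 19.4% and 8.97%, and subgroup 8 took 18.0% and 10.7%. Together these 3 subgroups held 63.2% of Igkv FPKM in PDR and 37.4% in SKYD.

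Subgroup 12 took the larger share in SKYD, with 2.50% of Igkv FPKM in PDR and 9.14% in SKYD. Of its 6 tested segments, 3 were past 2-fold toward PDR and 1, Igkv12-41, toward SKYD, against 50.6% and 17.3% of all tested segments. Subgroup 16 went from 0.437% in PDR to 5.77% in SKYD, subgroup 3 from 6.47% to 10.5%, subgroup 1 from 2.71% to 6.54% and subgroup 14 from 2.12% to 4.68%. In subgroup 1, 3 of 6 tested segments were past 2-fold toward PDR and 1 toward SKYD, and in subgroup 3 the same numbers were found among 7. Counting error is small beside these differences. For subgroup 12, for example, the share of Igkv reads was 2.55% in PDR (2.49 to 2.61) and 8.78% in SKYD (8.61 to 8.94). Subgroup 4, the largest with 26 segments, held 7.86% and 8.32%. Past 2-fold were 10 of its 20 tested segments toward PDR and 3 toward SKYD, near the 50.6% and 17.3% of all tested segments.

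**Figure D3:**
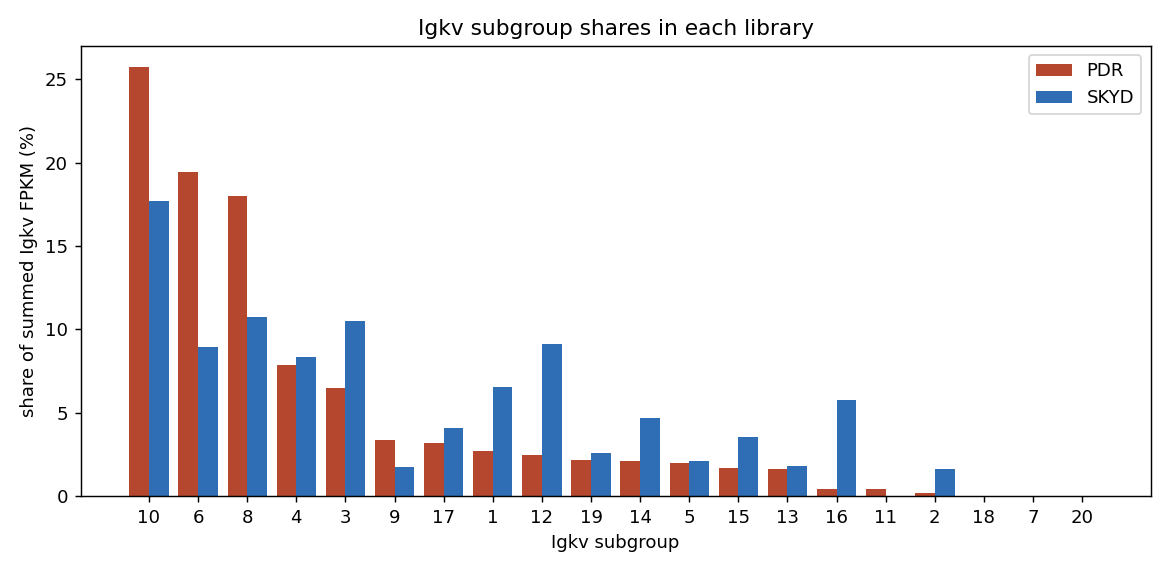
Bars give the share of summed Igkv FPKM, in percent, of each of the 20 subgroups in PDR and in SKYD, ordered by their share in PDR. Subgroups 10, 6 and 8 are taller in PDR, and subgroups 3, 1, 12, 14 and 16 are taller in SKYD.

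Single segments also dominated within several subgroups. In subgroup 10, Igkv10-96 made up 85.0% of the FPKM in PDR and 95.5% in SKYD. Igkv8-27 made up 85.1% of subgroup 8 in PDR and 48.4% in SKYD, where Igkv8-30 also contributed. In subgroup 6 the use was more even, with Igkv6-23 at 38.5% and 37.7%, and 6 of its 9 segments were past 2-fold toward PDR and 1 toward SKYD, against 50.6% and 17.3% of all tested segments. The leading segment changed between libraries in subgroup 12, from Igkv12-44 with 30.2% in PDR to Igkv12-41 with 53.6% in SKYD, and in subgroup 3, from Igkv3-2 with 31.1% to Igkv3-4 with 62.2%. Subgroup 9 was led by Igkv9-120 in both libraries (88.7% and 62.3%), subgroup 5 by Igkv5-39 (73.4% and 54.0%), subgroup 17 by Igkv17-121 (66.6% and 52.8%) and subgroup 2 by Igkv2-109 (85.9% and 99.5%). Igkv1-135 led subgroup 1 in PDR with 57.6% of its FPKM, and Igkv1-117 led it in SKYD with 50.9%. In subgroup 13, Igkv13-84 led in PDR and Igkv13-85 in SKYD, with 57.9% and 54.8%. Igkv11-125, Igkv18-36 and Igkv7-33 are the single members of their subgroups, and the last of these was too low to be tested.

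The members of subgroup 10 show how unlike such close relatives could be, and their variable exons are printed whole for that reason. The germline exons are given, not sequences read from these mice. Capitals mark the bases that differ from Igkv10-96, 16 in Igkv10-94 and 19 in Igkv10-95. Each exon has 298 bases in GRCm38.

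Igkv10-96 (chr6:68631963-68632260, minus strand): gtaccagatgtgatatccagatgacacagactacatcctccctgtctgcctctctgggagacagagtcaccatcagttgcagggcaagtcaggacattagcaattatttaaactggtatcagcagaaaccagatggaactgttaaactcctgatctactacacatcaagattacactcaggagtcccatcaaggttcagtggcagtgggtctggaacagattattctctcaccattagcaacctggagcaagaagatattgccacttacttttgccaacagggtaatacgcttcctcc
Igkv10-94 (chr6:68704508-68704805, minus strand): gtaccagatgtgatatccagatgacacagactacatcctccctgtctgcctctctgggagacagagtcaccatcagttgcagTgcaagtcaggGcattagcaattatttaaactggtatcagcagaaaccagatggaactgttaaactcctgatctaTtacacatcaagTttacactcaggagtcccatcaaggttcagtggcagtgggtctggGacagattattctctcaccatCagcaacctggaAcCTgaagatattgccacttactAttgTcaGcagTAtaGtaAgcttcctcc
Igkv10-95 (chr6:68680551-68680848, plus strand): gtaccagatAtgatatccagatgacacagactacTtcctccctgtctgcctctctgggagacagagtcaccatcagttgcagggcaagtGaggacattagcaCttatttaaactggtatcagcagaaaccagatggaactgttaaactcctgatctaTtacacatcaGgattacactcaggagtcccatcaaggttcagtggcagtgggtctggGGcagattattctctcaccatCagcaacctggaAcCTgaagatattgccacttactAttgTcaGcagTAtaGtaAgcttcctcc

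Igkv10-94 and Igkv10-95 differ from each other at 9 bases, an identity of 97.0%. Their FPKM moved in opposite directions. Igkv10-94 was at 1200 in PDR and 35.9 in SKYD, and Igkv10-95 was at 9.69 in PDR and 63.9 in SKYD, 6.59-fold higher in SKYD (5.20 to 8.45). Of the windows of 100 bases in Igkv10-94, 12.9% also occur in Igkv10-96, and no such window of Igkv10-95 occurs in another annotated gene. Over the 21 pairs of tested segments of the same subgroup and exon length with at least 95% identity, 14 pairs had differences of the same sign and 7 of opposite sign, where 61 of all 81 tested segments were higher in PDR and 20 in SKYD, so the split says nothing particular to close relatives. In 2 of the 7, each segment was past 2-fold in its own direction, namely this pair and Igkv12-41 with Igkv12-44, which had 95.6% identity. Igkv6-20 and Igkv6-29, with 98.3% identity and 55.8% shared windows each, were both higher in PDR, with FPKM of 1084 against 103 and of 15.9 against 1.07. Igkv13-84 and Igkv13-85, with 97.0% identity, had 298 against 102 and 217 against 123. Shared windows were found for 46 of the 100 segments and reached 10% or more of the windows in 26, Igkv10-96 (12.3%) and Igkv4-59 (20.4%) among them. With windows of 50 bases, a length added after the data were seen, 78 segments shared windows, and the share was 46.6% in Igkv10-94 and 17.8% in Igkv10-95. How reads that match several segments, or pairs that touch both a variable segment and Igkc, were counted is not given in the sources used here, so the split of reads within such pairs is uncertain. With the 26 segments at 10% or more of 100-base windows left out, Igkv8-27 was the leading segment in PDR with 27.3%, Igkv3-4 led SKYD with 10.6%, and the inverse Simpson index was 8.90 in PDR and 18.0 in SKYD.

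Position in the locus was not used to choose the members. Segments lie between 18.7 and 3167 kb from Igkj1, and 38 are on the plus strand, the strand of Igkc, and 62 on the minus strand. The 25 segments nearest to Igkj1 held 43.2% of Igkv FPKM in PDR and 26.0% in SKYD. Past 2-fold toward PDR were 13 of the 21 tested here and, going outward, 9, 11 and 8 of 20 in the other 3 stretches, against 50.6% of all tested segments and 7.38% of all genes tested. Toward SKYD the counts were 2, 6, 2 and 4 in the same order, against 17.3% of all tested segments and 6.91% of all genes tested. Summed FPKM of the nearest 25 was 4.16 times as high in PDR, with Igkv8-27 in the lead there. The next 25 held 9.16% in PDR and 18.2% in SKYD. Farther out, the 25 that include Igkv10-96 held 33.5% and 27.8%, and the 25 farthest from Igkj1 held 14.1% and 28.0%. In SKYD the outermost and innermost segments thus held similar shares, while in PDR the FPKM was gathered in 2 of the 4 stretches. By strand, minus strand segments held 75.9% in PDR and 58.8% in SKYD. Since Igkv10-96, Igkv8-27 and Igkv6-23 are all on the minus strand, these shares follow a few segments and carry no test.

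**Figure D4:**
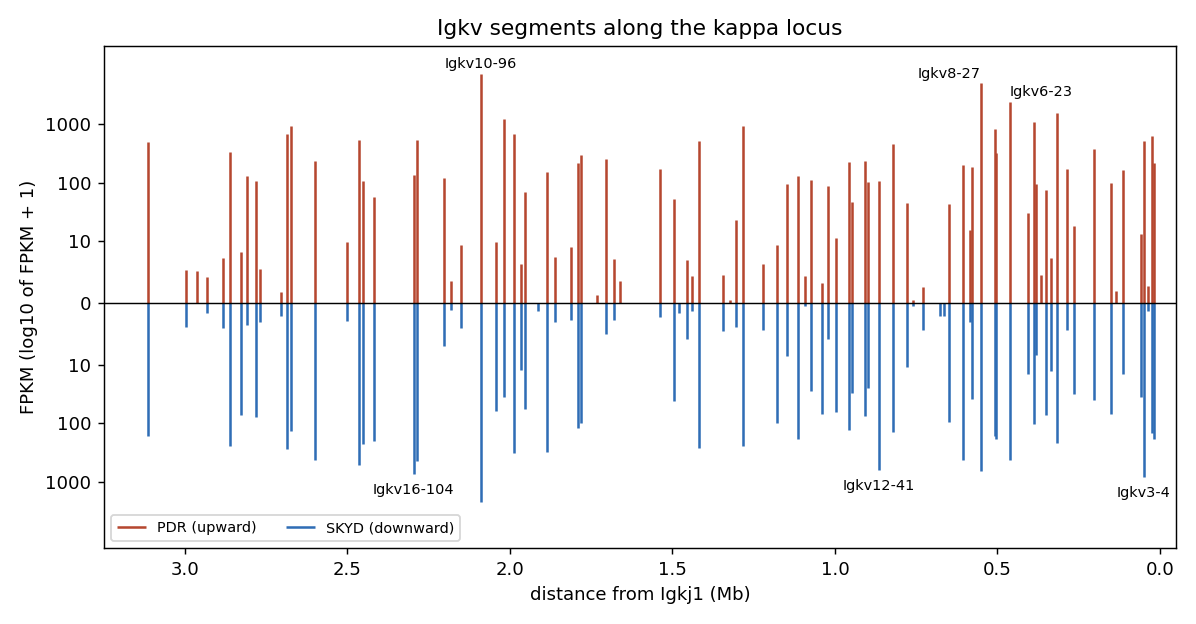
Each line is 1 Igkv segment, placed by its distance from Igkj1 in Mb, with its FPKM in PDR drawn upward and in SKYD drawn downward, both as log10 of FPKM + 1. Igkv10-96 is the longest line in both directions, and the lines of Igkv16-104 and Igkv12-41 are longer downward than upward.

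Of the joining segments, Igkj1 alone had more reads in SKYD, 317 against 201 in PDR. Its FPKM was 1.48-fold higher in SKYD (1.24 to 1.78). Igkj2 had 50 reads in PDR and 4 in SKYD, Igkj3 had 23 and 5, Igkj4 had 25 and 13 and Igkj5 had 83 and 8. Igkj1 therefore took 52.6% of Igkj reads in PDR and 91.4% in SKYD. These totals, 382 and 347 reads, are small beside the Igkv reads, and they do not say which variable segment each was joined to. Igkj3 is a segment that functional kappa chains of the mouse do not use.

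Heavy and lambda variable segments were measured in the same way as a comparison. The 113 heavy chain segments (Ighv) summed to an FPKM of 11571 in PDR and 2730 in SKYD. Their inverse Simpson index was 11.7 in PDR and 22.2 in SKYD, near that of Igkv in each library, but the leading segment changed, from Ighv1-20 with 17.6% to Ighv4-1 with 10.6%. The median difference was 1.70 over 83 tested Ighv segments, 45 of which were past 2-fold toward PDR and 15 toward SKYD, against 7.38% and 6.91% of all genes tested. Among the 3 lambda segments (Iglv), Iglv1 took 87.9% in PDR and Iglv2 took 52.9% in SKYD. No test of a difference between families could be made with 1 library a group, and a lower index in PDR was found in all 3 families.

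Igkv14-126, Igkv4-91 and Igkv7-33 are known from antibodies of B-1 cells, a B cell lineage of the body cavities that makes natural IgM. Igkv14-126 pairs with Ighv11-2 in antibodies to phosphatidylcholine. Both were higher in SKYD, Igkv14-126 with an FPKM of 6.07 in PDR and 74.8 in SKYD, 12.3-fold (9.27 to 16.7), and Ighv11-2 with 2 reads in PDR and 54 in SKYD, 25.4-fold (6.69 to 215). Igkv4-91, the partner of Ighv12-3 in antibodies of the same specificity, had an FPKM of 71.8 in PDR and 57.1 in SKYD, and Ighv12-3 had 15 and 8 reads, a split whose interval of 0.794 to 5.43-fold includes no difference. Igkv7-33 pairs with Ighv7-1 in the T15 antibodies, which bind phosphorylcholine, also on oxidised lipoproteins. Ighv7-1 had 8 reads in PDR and 292 in SKYD, 34.3-fold (17.2 to 80.2), while Igkv7-33 had 0 and 6 reads, too few for a comparison. Of the B-1 cell list, Cd5, which T cells also express, was 3.27-fold higher in SKYD (2.84 to 3.78), and Zbtb32 was 4.23-fold higher in PDR (3.68 to 4.87). Spn was level (1.02-fold), and Bhlhe41 was too low to be tested, with 86 and 18 reads.

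Macrophages do not rearrange immunoglobulin genes. The tested genes of the B cell list were higher in PDR, as most tested Igkv segments were. Of 10 B cell genes, 8 were tested, 7 were past 2-fold toward PDR and none toward SKYD, against 7.38% and 6.91% of all genes tested, and the median difference was 2.22. Their summed FPKM was 1795 in PDR and 445 in SKYD, with Cd79b the highest gene in PDR (802) and Cd79a in SKYD (178), and none was at 0. Ms4a1, which encodes CD20, was at 196 in PDR and 22.5 in SKYD. Summed Igkv FPKM was 17.4 times that of the B cell list in PDR and 28.0 times in SKYD. The part of B cell number in the Igkv differences was not tested.

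The 9 plasma cell genes were less far apart. Their summed FPKM was 3412 in PDR and 2752 in SKYD, led in both by Jchain, the chain that links IgM and IgA units, at 2483 and 2403. Of 8 tested, 4 were past 2-fold toward PDR and none toward SKYD, against 7.38% and 6.91% of all genes tested. Mzb1, with 612 against 116, and Tnfrsf17, with 20.1 against 4.76, were among the 4. Xbp1 was within 2-fold, at 250 and 211. The median difference was 1.01, and none was at 0. Their part in the Igkv differences was not tested.

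Heavy chain constant genes differed by class. Of 7 tested, 5 were past 2-fold toward PDR and none toward SKYD, against 7.38% and 6.91% of all genes tested, with a median difference of 2.87. Among the IgG genes, Ighg2c had an FPKM of 2390 in PDR and 97.1 in SKYD, Ighg2b had 6154 and 542, Ighg1 had 69.1 and 3.13, and Ighg3 had 301 and 40.3. Ighd, the IgD gene of cells that have not switched, was at 93.7 and 12.5, 7.49-fold, as far apart as Ighg3 (7.46-fold). Ighm was at 3689 and 2917, 1.26-fold (1.26 to 1.27), and Igha was at 443 and 507. Ighm was thus the leading heavy class in SKYD and Ighg2b in PDR. Lambda constant genes followed a like order, with Iglc1 at 2660 and 1050 and Iglc3 at 1259 and 350, while Iglc2 was level at 1315 and 1258. Of the germinal centre list, Fas was at 60.8 and 58.7 and Mki67 at 1.11 and 1.35, and Bcl6, with 33 and 117 reads, was not tested.

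Genes of segment joining went the other way. Rag1 and Rag2, which cut antigen receptor genes, had 0 reads in PDR and 637 and 2262 in SKYD. Dntt was at 0.780 and 206. Immature T cells use these 3 genes as well. Igll1 and Vpreb1, which encode the surrogate light chain of early B cells, had few reads, 0 and 15 for the first and 2 and 24 for the second, and Vpreb3 was higher in PDR (33.0 against 2.98). Of 5 genes tested in the early B cell list, 1 was past 2-fold toward PDR and 3 toward SKYD, against 7.38% and 6.91% of all genes tested. The sum of the list was 36.9 in PDR and 244 in SKYD, led by Vpreb3 and Dntt. Igll1, Rag1 and Rag2 were at 0 in PDR. Whether any Igkv reads came from such cells was not tested.

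Of 12 factors that act on kappa genes, 10 were tested, 3 were past 2-fold toward PDR and none toward SKYD, against 7.38% and 6.91% of all genes tested. The other 7 were within 2-fold, and the summed FPKM was 254 in PDR and 248 in SKYD. The 3 were Pou2af1, a B cell coactivator at octamer sites, with 57.4 against 11.4, Ikzf3 with 7.50 against 1.84 and Irf8 with 33.6 against 13.4. The paper counts Irf8 among its macrophage genes related to endothelial injury or protection, and which cells its reads came from was not tested. Spi1, which macrophages express as well, was the most abundant of the list in both and was higher in SKYD, 179 against 108.

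Macrophage markers were present in both libraries. The F4/80 gene Adgre1 had an FPKM of 87.3 in PDR and 93.3 in SKYD, and the CD11b gene Itgam had 8.84 and 14.4. All 7 genes of the list were within 2-fold, where 7.38% of all genes tested were past 2-fold toward PDR and 6.91% toward SKYD. The median difference was -0.58, and the sum of 22687 in PDR and 41919 in SKYD was led by Lyz2 (22217 and 41336). Summed Igkv FPKM was 1.38 times that of these markers in PDR and 0.297 times in SKYD.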

How the data were processed

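The authors aligned paired-end reads, counted them per gene and deposited FPKM for 54532 genes with length, position and biotype. The submitters' processing notes name mm9, Bowtie2 2.0.6, TopHat2 2.0.9 and HTSeq 0.6.1, but the positions match GRCm38, since 98.3% of 54495 shared genes, and all 100 segments, have the start and end of GENCODE M21. FPKM times gene length was divided by the step that 1 read makes, found from the low values of each column. All 17738 genes above 0 in PDR and 20499 in SKYD came out within 0.01 of a whole read. Groups had 1 library each, so no test was run. The comparison took genes whose FPKM averaged 1 or more, with a pseudocount of 1 and a threshold of 2-fold, and shares were of FPKM. Named segments were the 10 highest of each library, the 5 largest differences each way, the highest of each subgroup and segments of B-1 cell antibodies. The members and lists were chosen with earlier results of these data known. Some genes of the lists are not reported here. Shared windows were searched in all annotated transcripts, on both strands. The steps were tested on simulated data. Work was done in Python 3.11.15 with pandas 2.3.3 and numpy 2.4.6, intervals in scipy 1.17.1 and figures in matplotlib 3.10.9.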

Additional observations from a re-analysis of the deposited data

Results flagged for a closer look

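Igkv4-56 is annotated as a pseudogene and so stood outside the compared segments. It had an FPKM of 53.0 in SKYD, from 462 reads, and 0 reads in PDR, where a count of 0 allows an FPKM of up to 0.366. It held most of the 497 reads on Igkv pseudogenes in SKYD, while PDR had 164 such reads over 13 pseudogenes, led by Igkv3-11. It was singled out because reads appeared in rows that the comparison did not use. The cause was not tested.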

How the results depend on the processing

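No paired analysis was possible because each group had 1 library. Both counts of segments past 2-fold stayed within 1.5 times their value under pseudocounts of 0.1 and 0.01, no filter, a mean FPKM of at least 5, TPM, centring on all genes tested, more than 3 reads in both libraries and under 10% of shared windows. At 4-fold they were 25 for PDR and 7 for SKYD, 30.9% and 8.64% of tested segments, against 1.87% and 2.08% of all genes tested. Centred on the ratio of summed Igkv FPKM, added after the data were seen, they were 19 and 26, and the median turned to -0.27. That centring removes the total by construction, and it sets differences shrunk by the pseudocount of 1 against a ratio without one. The median was 1.28 and 1.31 with pseudocounts of 0.1 and 0.01, 0.77 with no filter, 1.11 in TPM and 0.91 with more than 3 reads in both.

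The leading share in PDR and SKYD was 21.6% and 16.6% by reads, 19.6% and 7.86% without the leading segment, 7.43% and 6.65% without the 5 leading segments, and 27.3% and 10.6% with under 10% of shared windows. The inverse Simpson index, in the same order, was 11.5 and 19.0, 15.1 and 27.4, 28.4 and 29.5, and 8.90 and 18.0. With pseudogenes it was 18.8 in SKYD. The Igkv10 share was 25.3% and 17.3% by reads, and 4.95% and 0.963% without the leading segment of each library. Divided by the reads on genes that are not immunoglobulin or T cell receptor genes, Igkv reads came to a ratio of 1.26% and 0.464%, and without the leading segment they were 0.906% and 0.374% of all reads on genes. Shared windows were found for 78 segments with 50 bases in place of 100, a length added after the data were seen. PDR had the higher value for Igkv reads, the higher leading share and the lower index under each alternative run on them. The spread between mice limits all of these values and cannot be measured.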
